A study of Mus musculus with 18 samples.

Results

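A one-strand promoter region was defined as a region of open chromatin that the deposited annotation places in the promoter of at least 1 gene, with every promoter named in that region on the same strand. Of 65983 regions in the deposited table, 19055 (28.9%) met this definition. The regions come from an assay of transposase-accessible chromatin (ATAC-seq), which uses a transposase to cut DNA wherever it is not packed, run on mouse CD4 T cells. Naive cells had been activated with beads against CD3 and CD28 and grown in Th1 medium with IL2, IL12 and an antibody to IL4, conditions that all 18 samples shared. The 6 groups of 3 samples were WT (wild type) or Id3-KO (knockout of Id3) cells, labelled Th1 at 24 h, Tcmp at 72 h or Teff at 72 h. The labels do not spell out Tcmp or Teff, and give neither the knockout allele nor the age and number of the mice. The table gives 1 set of regions for all samples, so the presence, position and width of a region belong to the whole data set and not to a genotype or time point.

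No comparison between Id3-KO and WT cells is made here. The p-value of a region's best window was taken as the deposited region p-value divided by its number of windows. In each of the 6 deposited contrasts it never decreased down the table (0 decreases, over 25375 to 53444 regions with a p below 1). Rows sorted by significance would look the same, so this order alone cannot show whether the statistics belong to their rows. They were therefore not read as belonging to the region in their row. What follows rests on position, width, the number of windows in a region and the gene annotation, which were read as belonging together: of 16865 region-gene entries whose gene has a RefSeq symbol, 16859 lay on the chromosome that RefSeq gives for the gene. Windows are short overlapping stretches that were joined into regions: a region of 1 window is 300 bp wide and widths move in steps of 50 bp. The depth of the libraries is unknown from this table, and the sources used here do not say how strong a signal had to be for a region to be listed. No test was run, since regions are not replicates. The spread is shown over the 19 autosomes, which share the same libraries, and 95% Wilson intervals cover counting error only.

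A promoter is the stretch of DNA around a gene's transcription start where RNA polymerase II and the general factors assemble. In active genes this stretch is kept free of nucleosomes, and the flanking nucleosomes are held in place. Many mammalian promoters lie in CpG islands, GC-rich stretches that keep their CpG dinucleotides, and carry sites for widely expressed factors such as SP/KLF, ETS, NRF1 and NF-Y. Others, often those of genes used in 1 cell type, are CpG-poor, and some carry a TATA box a short way before the start. Id3 is an inhibitor that binds E proteins (E2A, encoded by Tcf3, HEB, encoded by Tcf12, and E2-2, encoded by Tcf4) and keeps them from binding E-boxes, the sequence CANNTG.

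The sequences below are examples of promoters picked for their motif matches, and they need not be typical. Each is the 250 bases before the RefSeq gene start, 5′ to 3′ along the gene. The genes are T cell, cell cycle or housekeeping genes whose first listed exon was overlapped by a one-strand promoter region. For each motif the gene shown is the one with the most matches in its promoter among the listed genes, with the matches to that motif, on either strand, in capitals. The RefSeq build is GRCm38.p6, whereas the regions are given on GRCm39, so the coordinates of a sequence and of its region are not interchangeable.

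The first set carries the motifs of CpG-rich promoters. Nr4a2 encodes an orphan nuclear receptor switched on by antigen receptor signalling, and its sequence (GRCm38.p6, chr2:57124004-57124253, minus strand) has GC boxes in capitals (GGGCGG, or CCGCCC on the other strand). Snrpe, a core protein of spliceosomal snRNPs (chr1:133610281-133610530, minus strand), has an ETS site in capitals (CCGGAA, here read on the other strand as TTCCGG). Cdt1, which loads the replicative helicase at origins (chr8:122567765-122568014, plus strand), has the NRF1 core CGCATGCG. Snrpg, another snRNP core protein (chr6:86371290-86371539, plus strand), has the cAMP response element TGACGTCA.
Nr4a2: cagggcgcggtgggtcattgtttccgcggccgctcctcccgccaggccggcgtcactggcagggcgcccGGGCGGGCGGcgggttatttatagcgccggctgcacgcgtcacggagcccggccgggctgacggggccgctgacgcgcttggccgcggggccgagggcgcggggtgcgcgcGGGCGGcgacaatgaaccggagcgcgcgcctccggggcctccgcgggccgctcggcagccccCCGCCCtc
Snrpe: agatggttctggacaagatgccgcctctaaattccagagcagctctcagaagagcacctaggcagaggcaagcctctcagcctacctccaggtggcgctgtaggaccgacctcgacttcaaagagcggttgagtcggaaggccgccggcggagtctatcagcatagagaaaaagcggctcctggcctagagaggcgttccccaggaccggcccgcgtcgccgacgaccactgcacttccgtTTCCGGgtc
Cdt1: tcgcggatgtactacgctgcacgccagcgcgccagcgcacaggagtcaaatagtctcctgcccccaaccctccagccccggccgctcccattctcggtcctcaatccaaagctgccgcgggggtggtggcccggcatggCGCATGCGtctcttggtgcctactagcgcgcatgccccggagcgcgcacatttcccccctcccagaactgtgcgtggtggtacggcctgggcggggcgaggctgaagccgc
Snrpg: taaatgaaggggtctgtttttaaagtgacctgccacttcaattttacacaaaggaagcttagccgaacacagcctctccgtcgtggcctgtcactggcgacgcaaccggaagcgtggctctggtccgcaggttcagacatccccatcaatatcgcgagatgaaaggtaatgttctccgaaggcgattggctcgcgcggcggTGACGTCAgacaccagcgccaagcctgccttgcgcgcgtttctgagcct

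The second set carries a CCAAT box, an E-box and the motifs of CpG-poor promoters. Top2a, the DNA topoisomerase of dividing cells (chr11:99024190-99024439, minus strand), has 6 CCAAT boxes (CCAAT, or ATTGG on the other strand). Polr2j, a subunit of RNA polymerase II (chr5:136116441-136116690, plus strand), has 2 E-boxes of the form CAGGTG, one that E proteins bind. Cxcr3, the chemokine receptor of Th1 cells (chrX:101734148-101734397, minus strand), has a RUNX site (TGTGGT, here on the other strand as ACCACA). Il13, a Th2 cytokine (chr11:53634703-53634952, minus strand), has 2 overlapping matches to the TATA box TATAAA, 1 on each strand.
Top2a: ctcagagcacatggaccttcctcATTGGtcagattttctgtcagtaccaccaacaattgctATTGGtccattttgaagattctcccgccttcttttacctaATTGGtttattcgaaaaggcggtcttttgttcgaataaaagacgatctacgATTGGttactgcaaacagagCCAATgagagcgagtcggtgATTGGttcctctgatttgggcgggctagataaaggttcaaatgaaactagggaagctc
Polr2j: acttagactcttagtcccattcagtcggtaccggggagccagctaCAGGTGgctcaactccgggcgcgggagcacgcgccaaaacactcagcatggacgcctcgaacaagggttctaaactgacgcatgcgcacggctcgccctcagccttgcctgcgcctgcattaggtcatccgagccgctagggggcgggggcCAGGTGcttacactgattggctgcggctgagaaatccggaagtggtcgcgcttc
Cxcr3: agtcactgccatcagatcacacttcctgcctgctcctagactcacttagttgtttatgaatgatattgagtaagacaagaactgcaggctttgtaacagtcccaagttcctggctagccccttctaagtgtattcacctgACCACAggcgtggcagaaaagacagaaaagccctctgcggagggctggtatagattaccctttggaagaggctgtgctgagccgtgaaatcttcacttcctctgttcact
Il13: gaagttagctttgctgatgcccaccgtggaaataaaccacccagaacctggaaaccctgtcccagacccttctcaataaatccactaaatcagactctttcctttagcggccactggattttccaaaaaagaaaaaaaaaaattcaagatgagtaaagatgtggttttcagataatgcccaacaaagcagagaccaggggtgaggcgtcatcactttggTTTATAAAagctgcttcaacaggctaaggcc

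The regions over the first listed exons of these genes were of different widths. On GRCm39, Nr4a2 had a region of 750 bp (chr2:57013651-57014400) and Top2a 1 of 750 bp (chr11:98914751-98915500). Snrpe (chr1:133537701-133538400), Snrpg (chr6:86348151-86348850) and Polr2j (chr5:136145201-136145900) each had a region of 700 bp with 9 windows. Cdt1 had 1 of 600 bp (chr8:123294301-123294900), Cxcr3 1 of 650 bp (chrX:100777401-100778050) and Il13 1 of 500 bp (chr11:53525251-53525750). Over the whole 300-base promoter (the printed 250 bases and the 50 after the start), Cxcr3 and Il13 had CpG ratios (observed over expected) of 0.22 and 0.19, against 0.86 to 1.06 in the other 6 genes.

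One-strand promoter regions were wider than regions away from promoters and narrower than regions that hold promoters on both strands. Their mean width was 590 bp (SD 123, n = 19055 regions), with quartiles of 500, 600 and 650 bp and a range of 300 to 1050 bp. They held 6.74 windows on average (SD 2.41, at most 16), and 3.01% had a single window. The 3865 regions with promoters on opposite strands, as where 2 genes start back to back, had a mean of 629 bp (SD 124). Regions over exons away from promoters averaged 554 bp, regions wholly in introns 539 bp and regions with no overlapping gene 550 bp. On 19 of 19 autosomes the mean width of one-strand promoter regions was above that of each of these 3 classes, and on 0 of 19 was it above that of opposite-strand regions.

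The classes differed at the wide end of the distribution and at narrower widths too. At 550 bp lay 16.4% of the one-strand promoter regions, 11.9% of the opposite-strand regions and 21.9% of the intron regions. Of the one-strand promoter regions, 21.4% were 700 bp or wider, with 18.2% to 25.1% on single autosomes. The share was 34.5% for opposite-strand regions (27.3% to 41.9%), 7.23% for exon regions, 6.02% for intron regions and 7.73% for regions without an overlapping gene. These ranges over autosomes did not overlap between the promoter classes. The table has 1 region at its largest width, 1100 bp, and it was not a one-strand promoter region.

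**Figure D1:**
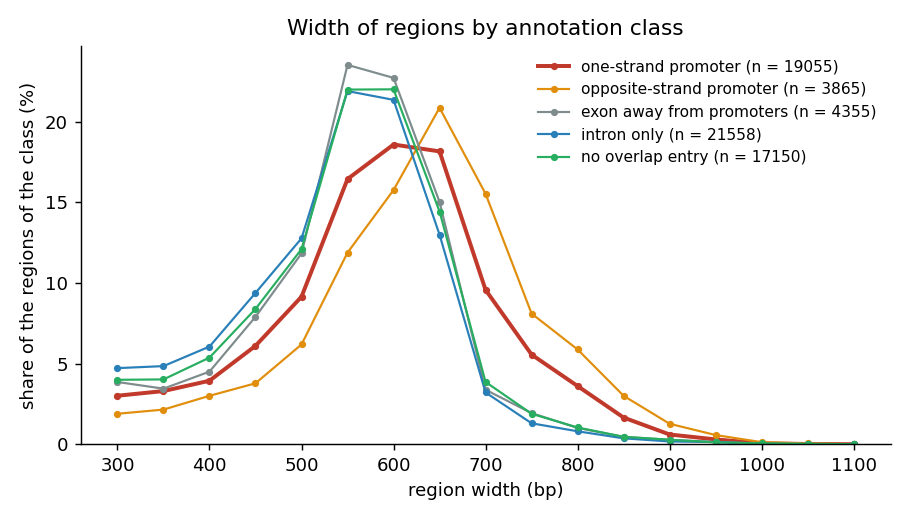
Share of the regions of each annotation class (y axis, %) at each width (x axis, bp, steps of 50), 1 line per class with its number of regions. One-strand promoter regions have a smaller share at 550 bp (16.4%) than the exon, intron and gene-free regions (21.9% to 23.5%). They keep a shoulder at 700 bp and above, where 21.4% of them lie. This share is between those of the opposite-strand promoter regions (34.5%) and of the exon, intron and gene-free regions (6.02% to 7.73%).

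Within the one-strand promoter regions, width went with place relative to the gene. In 9262 regions (48.6%) the region overlapped the first listed exon of its gene, that is, an exon with no other exon of that gene within the 5000 bp upstream that the annotation covers. These regions averaged 635 bp (SD 118, median 650) with a median of 8 windows, and 35.6% were 700 bp or wider. The 2637 regions (13.8%) over a later exon averaged 570 bp, and 12.8% were that wide. The 2793 regions (14.7%) that overlapped an intron and no exon of the promoter's gene averaged 534 bp, and the 4363 regions (22.9%) wholly upstream of their gene 542 bp, with 5.23% and 6.67% at 700 bp or more. First-exon regions were wider on average than each of the other places on 19 of 19 autosomes (means of 623 to 647 bp, against 529 to 553 bp upstream). The means of the upstream and intronic regions thus lay beside those of the 3 classes away from promoters (539 to 554 bp). The first-exon regions were not narrower than the opposite-strand regions, whose mean was 629 bp with 34.5% at 700 bp or more. The opposite-strand regions were not split by place.

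The strand of the gene made little difference. The plus strand held 9608 of the regions (50.4%) and the minus strand 9447 (49.6%), with mean widths of 589 and 591 bp. The share over a first exon was 48.3% on the plus strand and 49.0% on the minus strand. By chromosome, one-strand promoter regions made up between 24.5% (chromosome 13) and 33.6% (chromosome 19) of the autosomal regions, 33.1% of those on X, and 1 of 15 regions on Y.

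The place given to a region was read from the exons that the annotation lists, and the CD3 chains of the T cell receptor differed in it. Cd3e had a first-exon region (chr9:44920401-44921000, 600 bp, 7 windows), whereas the regions of Cd3d (chr9:44897651-44898200, 550 bp) and Cd3g (chr9:44884601-44885200, 600 bp) overlapped an exon with another exon 253 and 261 bp upstream. Cd3d lies on the plus strand and Cd3g on the minus strand, and a region in the promoters of both would not be counted here. Why the places differ was not tested. Overlap with the first listed exon is not the same as covering a gene start, which was not analysed here.

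Regions wholly upstream were spread over the whole promoter stretch that the annotation allows. For 4881 of 5170 region-gene pairs an exon was listed downstream, at a distance of 930, 1678 and 2353 bp (quartiles) and at most 3000 bp. There was a dip between 500 and 750 bp (281 pairs), between the 389 pairs within 250 bp of the exon and the 497 between 2500 and 2750 bp. The distance differed with what else the gene had. For this split, first-exon regions of the one-strand and of the opposite-strand kind were both counted. In 1601 pairs (32.8%) the gene also had a region over its first listed exon, and the median distance was 2016 bp. In the other 3280 pairs it was 1403.5 bp. Within 500 bp of the exon lay 29 pairs of the first kind and 674 of the second. The smallest gap between listed regions was 600 bp, so both can stand this close together only where the exon is long or the gene has a further start. From 1500 to 1750 bp upstream, 47.4% of the pairs had a gene with a first-exon region as well.

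**Figure D2:**
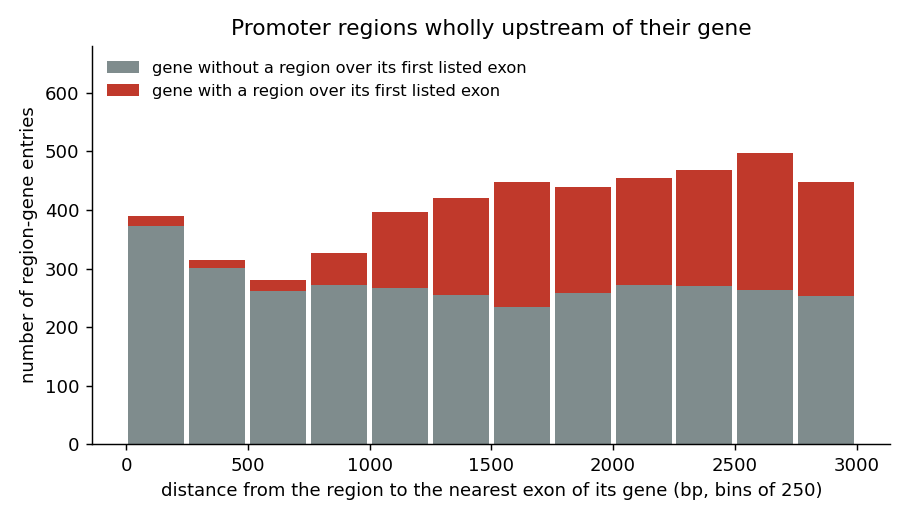
Number of region-gene pairs (y axis) by the distance from an upstream region to the nearest exon of its gene (x axis, bp, bins of 250), stacked by whether the gene also has a region over its first listed exon. Such a region may be of the one-strand or the opposite-strand kind. Genes with one make up 4.11% of the pairs in the first bin and 47.4% of those between 1500 and 1750 bp.

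Most regions named 1 promoter, and most genes had 1 region. Of the 19055 regions, 18160 lay in the promoter of 1 gene, 780 in those of 2 and 115 in those of 3 or more. In 2032 regions (10.7%) the body of a gene on the other strand was overlapped as well. The regions named 14765 genes, of which 2802 carry an Ensembl identifier alone. Among these genes 10893 had 1 region, 2870 had 2 and 1002 had 3 or more, so that 26.2% had at least 2. In 9028 genes a region overlapped the first listed exon.

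The most promoters in 1 region were 8, and both such regions lay in the T cell receptor beta locus, in front of its D and J segments. One (chr6:41509451-41510100, 650 bp, 8 windows) ended 35 bp before Trbd1 and stood in the promoters of Trbd1 and of Trbj1-1 to Trbj1-7. The other (chr6:41518501-41519050, 550 bp, 6 windows) ended 47 bp before Trbd2 and stood in those of Trbd2 and of Trbj2-1 to Trbj2-7. D and J segments are the short gene pieces that are joined in developing T cells to make the variable part of the beta chain, so they are no ordinary promoters, and the annotation treats each segment as a gene with a start of its own.

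The genes with the most regions were Gtf2i and Foxp1, followed by 13 genes with 7 each, of which Fkbp5, Firre and Smad4 had the most windows. Gtf2i, which encodes the transcription factor TFII-I, had 10 regions with 61 windows on chromosome 5, 6 of them over later exons. Foxp1, a forkhead factor that holds naive T cells in quiescence, had 8 regions with 47 windows on chromosome 6, 4 of them in introns. Fkbp5, a co-chaperone of the glucocorticoid receptor, had 7 regions with 51 windows on chromosome 17, and Smad4, the common mediator of TGF-beta signalling, 7 with 48 windows on chromosome 18. Firre, a long non-coding RNA gene on X, had 7 regions with 50 windows. None of the 5 had a region wholly upstream, and in each the widest region was 700 or 800 bp. Several regions in 1 gene need several annotated starts or a long promoter stretch, so these counts also follow how many transcripts the annotation lists.

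Protein-coding genes were named far more often than other kinds. Of the 14765 genes, 11886 matched a RefSeq symbol, and 10343 of these were protein coding. That is 47.2% of 21896 protein-coding RefSeq symbols, and 34.3% had a region over the first listed exon. A further 14.5% had promoter regions of the opposite-strand kind alone. The share with a one-strand region was 22.9% for miRNA genes, 8.28% for small nucleolar RNA genes, 4.01% for long non-coding RNA genes and 2.95% for pseudogenes. Of the 281 miRNA genes, 57 had the region over the listed exon itself. Long non-coding genes named differently in the annotation and in RefSeq could not be matched, which lowers their share.

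Genes of T cell function were mostly present. Of 132 genes in 5 T cell lists, 111 (84.1%, interval 76.9% to 89.4%) had a one-strand promoter region, and 86 (65.2%) had one over the first listed exon. Of 122 genes of the cell cycle, proteasome, tRNA charging and splicing or transcription lists, the numbers were 83 (68.0%) and 69 (56.6%), and another 37 had opposite-strand regions alone. Of 175 genes of other cell types and of development, they were 55 (31.4%, interval 25.0% to 38.6%) and 27 (15.4%), and 106 had no promoter region. Over all protein-coding symbols the corresponding shares are 47.2% and 34.3%. The lists were chosen with earlier results of these data known, and nothing is read from these counts as particular to a list.

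**Figure D3:**
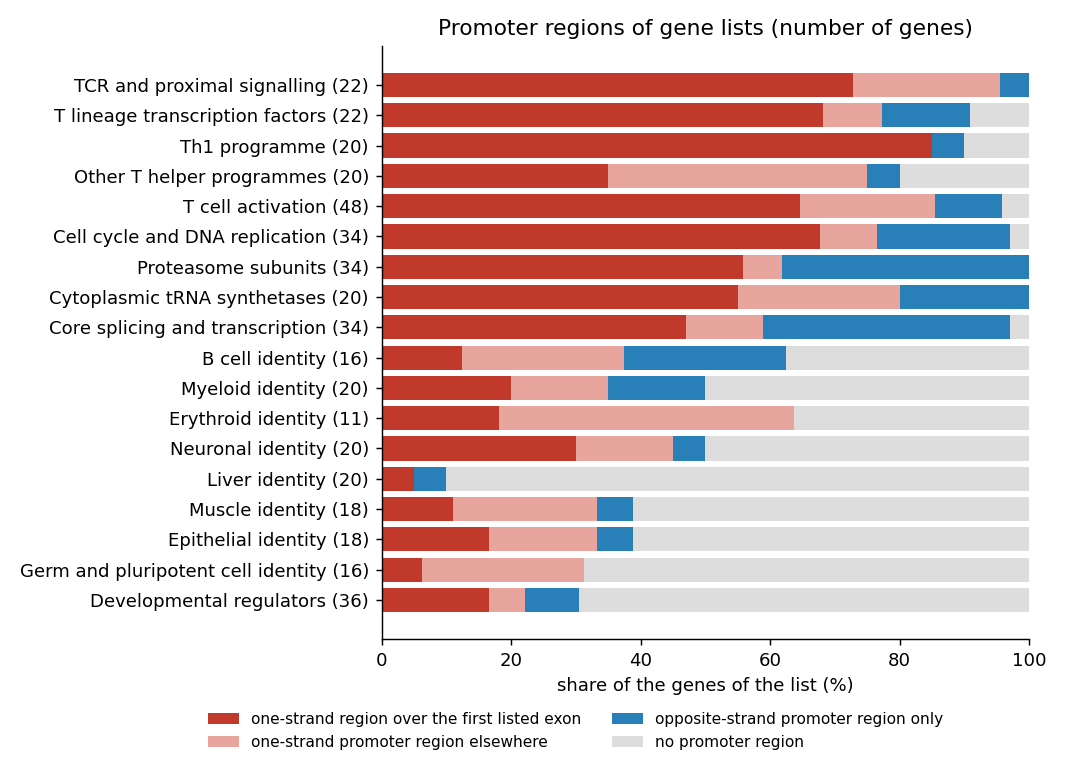
Share of the genes of each list (x axis, %; number of genes in brackets), split into those with a one-strand region over the first listed exon, a one-strand region elsewhere in the promoter, an opposite-strand region alone, or no promoter region. The 5 T cell lists at the top have from 15 of 20 to 21 of 22 of their genes in the 2 one-strand parts, the proteasome and splicing lists have a large opposite-strand part, and the liver list has 1 of 20 genes.

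The T cell receptor and its proximal signalling genes had the highest share, 21 of 22. All 8 defining T cell markers (Cd3e, Cd3d, Cd3g, Cd247, Cd4, Lck, Zap70 and Lat) were among the genes with a one-strand promoter region, and 5 of them had it over the first listed exon. Lck, the kinase that starts T cell receptor signalling, had 5 regions with 31 windows. They formed 2 groups along the gene. The downstream group held a region of 300 bp over a later exon (chr4:129450351-129450650), 1 of 750 bp over a first exon (chr4:129452001-129452750) and 1 of 500 bp in an intron (chr4:129454951-129455450). The upstream group held a first-exon region of 600 bp (chr4:129467201-129467800) and 1 of 650 bp (chr4:129468901-129469550) that ended 1467 bp upstream. Cd6, a co-receptor of the synapse, had 4 regions with 31 windows on chromosome 19, the first-exon region at chr19:10807051-10807650. Cd4 had 1 region over its first exon (chr6:124864901-124865500, 600 bp, 7 windows), and Zap70, the kinase that binds the phosphorylated CD3 chains, 1 of 450 bp with 4 windows (chr1:36800651-36801100).

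Among the T lineage transcription factors 17 of 22 had a region. Satb1, a chromatin organiser of thymocytes, had 5 regions with 26 windows on chromosome 17, from 300 to 650 bp. Ets1, a founding ETS factor, had 3 with 20 windows, 2 of them over first exons. Gata3, which drives T cell development and the Th2 programme, had 1 region of 700 bp with 9 windows, over its first exon on chromosome 2. Runx3 had 2 regions with 12 windows, 1 over its first exon.

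In the Th1 list 17 of 20 genes had a one-strand region, and all 17 had one over the first listed exon. Over all protein-coding genes with a one-strand region the count was 7520 of 10343 (72.7%). The difference was not tested. Ifng, the defining Th1 cytokine, had a region of 600 bp with 7 windows (chr10:118276501-118277100). Il12rb2, the inducible chain of the IL-12 receptor, had 4 regions with 31 windows. A pair lay near an inner start (chr6:67316351-67316950 and chr6:67318301-67318900, both 600 bp) and a pair near the outer one (chr6:67352801-67353500, 700 bp, and chr6:67354851-67355500, 650 bp, the latter 1679 bp upstream). Cxcr3 had 2, and the upstream one was the wider, 700 bp at chrX:100780651-100781350, 2776 bp from the exon. Il12rb1 and Il18rap had 2 regions each, and Gzmb and Prf1, which encode killing proteins of cytotoxic granules, had 1 each over the first exon, of 650 and 850 bp.

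Of the genes of other helper programmes, 15 of 20 had a one-strand region and 7 had one over the first listed exon. Ccr4, a chemokine receptor of Th2 and regulatory T cells, had 4 regions with 28 windows, 1 of each place. Foxp3, the factor of regulatory T cells, had 2 regions with 9 windows, 1 over a later exon and 1 upstream. Il17f had 3 with 12 windows, 2 in introns and 1 upstream, and none over the first listed exon. Il10 had 1 region, upstream and 500 bp wide. The Il13 gene had 1 over its first exon (chr11:53525251-53525750) and 1 upstream (chr11:53526851-53527450, 600 bp). The difference between the Th1 list and this one was not tested, and the samples hold no culture of another helper type.

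Of the 48 T cell activation genes, 41 had a one-strand region and 31 had one over the first listed exon. Nfkb1, the p105 and p50 subunit of NF-kappa-B, had 7 regions with 46 windows, 5 of them over later exons and 1 of 600 bp over the first (chr3:135396901-135397500). Stat3 had 5 with 37 windows, and the one over the first exon was the widest, 750 bp (chr11:100830101-100830850). Prdm1, which encodes Blimp-1, had 3 regions with 24 windows, and Tnfrsf9, the co-stimulatory receptor 4-1BB, 3 with 23 windows, none of them over the first listed exon. Il2 had 2 regions, Il2ra 1 of 700 bp, and Ctla4 and Cd28 2 each.

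Of the 132 T cell genes, 10 had no promoter region of either kind, namely Bhlhe40, Ccr8, Ikzf1, Il17a, Il23r, Il9, Jun, Lef1, Tbx21 and Tnf. Some of these are silent in Th1 cells as far as is known (Il17a, Il9), but Tbx21 encodes T-bet, the Th1 master factor, and Ikzf1, Lef1, Jun and Tnf are known to be used by T cells. Absence from the list was therefore not read as a state of the chromatin at the gene. Ikzf1 had 18 regions and Lef1 19 elsewhere in their gene bodies, 18 and 16 of them wholly in introns. Tbx21 had 4 in its body, 3 of them in introns. Il23r had 6 in its body, Bhlhe40 and Tnf 1 each, and Ccr8, Il17a, Il9 and Jun 0. Among the 122 cell cycle and housekeeping genes, Cdk6 and U2af2 had no promoter region, and Cdk6 had 26 regions in its introns. Why these starts are missing was not tested.

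The first-exon regions of the cell cycle and housekeeping lists together had a median of 650 bp with 47.8% at 700 bp or more, where 35.6% of all first-exon regions lie. The values were 600 bp and 25.0% for the T cell lists, and 600 bp and 3.57% for the other lists. The single lists differed: 26.1% of the cell cycle regions were that wide, 45.5% of those of tRNA synthetases and 50.0% of those of splicing and transcription genes, and in the T cell lists 31.2% of those of T lineage transcription factors. A one-strand region was present for 26 of 34 cell cycle genes, 21 of 34 proteasome genes, 16 of 20 cytoplasmic tRNA synthetases and 20 of 34 splicing and transcription genes. Top2a and Aurkb, the latter a mitotic kinase, had 2 regions each with 17 windows, 1 over the first exon and 1 upstream. Proteasome subunits had a median of 750 bp, and 73.7% of their 19 first-exon regions were 700 bp or wider. Psmb4, a beta subunit of the core particle, had 1 of 800 bp with 11 windows (chr3:94793751-94794550), and Psma3, an alpha subunit, 1 of 850 bp with 12 windows (chr12:71021151-71022000). Polr2c, a subunit of RNA polymerase II, had a region of 950 bp with 14 windows (chr8:95583901-95584850), and Sars, the seryl-tRNA synthetase, 1 of 950 bp with 12 windows (chr3:108351901-108352850). Of 34 proteasome genes 13 had opposite-strand regions alone, as did 13 of the 34 splicing and transcription genes, so the one-strand rule leaves many of these genes out.

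Of the 55 genes of other cell types and of development with a one-strand region, 27 had one over the first listed exon. The count was 86 of 111 for T cell genes and 7520 of 10343 (72.7%) for all protein-coding genes, and the difference was not tested. Liver genes had 1 of 20, Trf (transferrin), whose first-exon region was 300 bp with 1 window. Developmental regulators had 8 of 36, muscle and epithelial genes 6 of 18 each, B cell genes 6 of 16, myeloid genes 7 of 20, neuronal genes 9 of 20 and germ or pluripotent cell genes 5 of 16. Erythroid genes had 7 of 11, but 2 over the first listed exon, among them Gata1. Pou2af1, a B cell co-activator that T cells can also use, had 1 wide region over its first exon (chr9:51124801-51125600, 800 bp, 11 windows), the only first-exon region of these lists at 700 bp or more. Spi1 had 1 region in an intron and 1 upstream. A region in a promoter does not show that the gene is transcribed, and whether cells of another type contributed was not tested.

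Every Id and E protein gene had a one-strand promoter region and none had an opposite-strand one. Over all protein-coding symbols 47.2% had a one-strand region and 14.5% opposite-strand regions alone. The difference was not tested. Id3, the gene knocked out in 3 of the 6 groups, had 2 with 12 windows in all: 1 over its first exon (chr4:135870851-135871350, 500 bp) and 1 upstream (chr4:135867501-135868100, 600 bp, 2708 bp from the exon). Since the table gives no value per sample, the knockout could not be checked there. Id2 had 2 regions with 15 windows, 1 over a later exon (chr12:25145901-25146550, 650 bp) and 1 upstream (chr12:25148601-25149200, 1462 bp away). Id1 and Id4 had 1 small region each, of 400 bp with 3 windows (chr2:152578001-152578400) and 350 bp with 2 windows (chr13:48414301-48414650). The Id1 region lay over the first exon and the Id4 region wholly upstream of its gene. Of the E protein genes, Tcf3 had 4 regions with 27 windows, the one over its first exon being 850 bp with 12 windows (chr10:80269351-80270200). Tcf4 had 4 with 29 windows on chromosome 18, and Tcf12 1 of 550 bp with 4 windows (chr9:71803401-71803950).

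Promoter sequence was compared over protein-coding genes with a single RefSeq promoter, 300 bases long (250 before and 50 after the start). These were 6530 genes with a one-strand region, 4847 of them with it over the first listed exon, 2180 with opposite-strand regions alone, and 6020 with no promoter region. Promoters of genes with a one-strand region had a mean GC content of 60.5% (SD 9.27), against 61.1% for opposite-strand genes and 47.8% (SD 11.1) for genes without a promoter region. A promoter was taken as CpG-rich when its GC content was at least 50% and its CpG ratio at least 0.6. This was so for 64.7%, 74.9% and 11.8% of the 3 groups, and for 44.6% of all 14730 promoters. The one-strand share was above that of genes without a region on 18 of 18 autosomes with sequences, and above that of opposite-strand genes on 1 of 18.

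Motifs of CpG-rich promoters were also more frequent in the one-strand group than in genes without a region. The GC box (GGGCGG) was found in 63.1% of one-strand promoters, 66.0% of opposite-strand ones and 18.4% of those without a region (45.3% of all promoters). The ETS site (CCGGAA) was in 25.0%, 35.9% and 6.06% (18.9% of all), the NRF1 core (CGCATGCG) in 3.74%, 4.13% and 0.48% (2.46% of all), and the YY1 core (AAGATGGC) in 4.2%, 6.42% and 1.31% (3.35% of all). For each of these 4 the one-strand share was higher than in genes without a region on 18 of 18 autosomes. Against opposite-strand genes the one-strand share was higher on 0 of 18 autosomes for the ETS site, 4 for the YY1 core, 6 for the GC box and 11 for the NRF1 core. The CTCF core (AGGGGGCG), which can share letters with a GC box, was in 11.2%, 11.1% and 3.24% (7.94% of all), and higher than in opposite-strand genes on 10 of 18.

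Motifs without a CpG showed other orders. The TATA box (TATAAA) was in 7.83% of one-strand promoters and in 24.0% of those without a region (14.3% of all), and lower in the former on 18 of 18 autosomes. The AP-1 site (TGANTCA) was in 5.27% and 10.4% (7.09% of all), and the RUNX site (TGTGGT) in 13.6% and 19.5% (15.5% of all). The CCAAT box was at 39.0% and 39.6% (39.6% of all). The E-box forms that E proteins bind differed little between the 2 groups: CAGCTG was in 15.6% and 15.0% (15.0% of all; higher on 7 of 18 autosomes), and CAGGTG in 18.7% and 20.8% (19.3% of all). Any E-box (CANNTG, which includes both of these and CACGTG) was in 64.5% and 77.2% (69.2% of all). The MYC form CACGTG, which holds a CpG, was in 9.69% and 4.35% (7.72% of all), higher on 17 of 18 autosomes, and in 11.1% of opposite-strand promoters. In opposite-strand promoters the TATA box was in 6.88%, the AP-1 site in 3.53%, the RUNX site in 10.4% and the CCAAT box in 41.4%. CAGCTG was in 13.2% of them, CAGGTG in 16.9% and any E-box in 61.1%. The one-strand share was above the opposite-strand share on 14 of 18 autosomes for TATA, RUNX and any E-box. It was above on 9 for AP-1, 6 for CCAAT and 16 each for CAGCTG and CAGGTG. A match is a run of letters and no proof of binding, and motifs with a CpG are more frequent wherever CpGs are.

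Promoters of genes with a first-exon region of 700 bp or more carried ETS and NRF1 letters more often than those of genes with a narrow one. Sequence and region were joined by gene name alone. A promoter under a region here means only that its gene had that region over the first listed exon. Whether the sequence lies within the region was not checked. In the 304 promoters under regions of 300 to 450 bp the ETS site was found in 12.2% (interval 8.96% to 16.3%). The share was 14.6% at 500 to 550 bp, 26.4% at 600 to 650 bp, 33.1% at 700 to 750 bp and 30.2% (interval 26.6% to 34.1%) in the 582 promoters under regions of 800 bp or more. The NRF1 core went from 0.66% (0.18% to 2.37%) through 2.49%, 2.98% and 5.68% to 7.90% (5.98% to 10.4%). CpG-rich promoters went from 51.0% to 77.4% at 700 to 750 bp and were 70.1% at the widest. On 18 of 18 autosomes the ETS, NRF1 and CpG-rich shares were higher under regions of 700 bp or more than under those of up to 550 bp.

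CpG content went with width too, so the same shares were taken within CpG-rich promoters. There the ETS share was 18.7% and 18.2% in the 2 narrowest classes and 29.5%, 35.9% and 31.9% in the wider ones, and the NRF1 share went from 1.29% to 10.1%. In promoters that were not CpG-rich, the ETS share went from 5.37% to 26.4%. The GC box differed between the strata. Among CpG-rich promoters it was in 85.2% under the narrowest regions and 71.1% under the widest, where GC content was 67.9% and 61.3%. In promoters that were not CpG-rich the shares were 29.5% and 42.5%. Over all promoters the GC box went from 57.9% to 69.8% at 700 to 750 bp and was 62.5% at the widest, and it was higher under regions of 700 bp or more than under those of up to 550 bp on 15 of 18 autosomes. CAGCTG showed no trend, at 15.1% under the narrowest regions and 13.7% under the widest. TATA boxes were in 10.5% under the narrowest (interval 7.56% to 14.5%) and 5.97% at 700 to 750 bp (4.84% to 7.33%), but 8.25% under the widest.

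**Figure D4:**
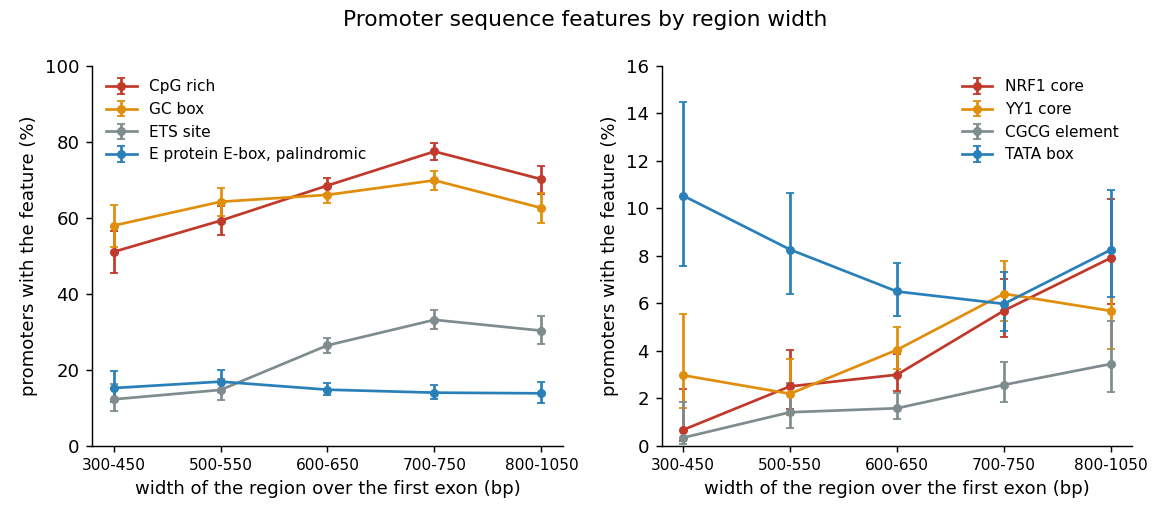
Share of promoters with a sequence feature (y axis, %) by the width of the region over the gene's first listed exon (x axis, bp classes), with 95% Wilson intervals as bars; frequent features are on the left, rare ones on the right. ETS sites go from 12.2% to 30.2% and NRF1 cores from 0.66% to 7.90%, whereas the E-box CAGCTG stays between 13.7% and 16.8%.

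Several motifs were most frequent at a certain distance from the gene start. In the 4847 promoters with a first-exon region the GC box was most frequent between 50 and 25 bases before the start, where 21.7% of promoters had a match, against a median of 9.87% over the 25-base bins. The CCAAT box peaked at 75 to 50 bases before the start (10.0%), and the ETS site in the last 25 bases before it (6.71%), as did the NRF1 core (0.87%). The YY1 core was most frequent 25 to 50 bases after the start (1.82%), inside the transcribed part. The TATA box had a small local peak at its usual place in these promoters, 1.01% between 50 and 25 bases before the start, against 0.19% and 0.54% in the bins on either side and 1.09% in the bin farthest from the start. In the 6020 promoters of genes without a promoter region the same bin held 6.46%. CAGCTG stayed between 0.95% and 1.53% in the bins before the start of promoters with a first-exon region, and was most frequent 25 to 50 bases after it (2.04%).

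**Figure D5:**
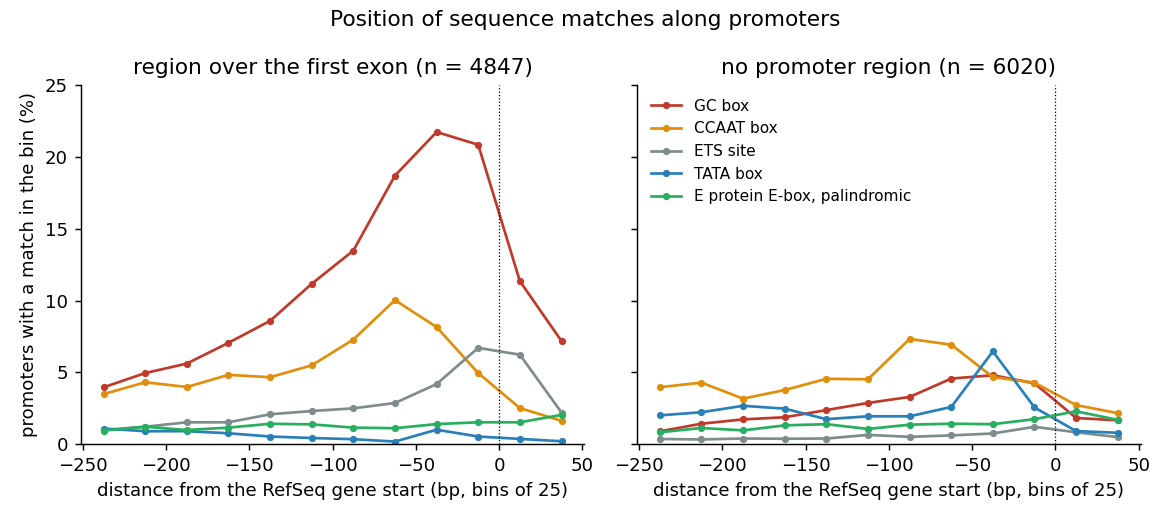
Share of promoters with a match in each 25-base bin (y axis, %) along the promoter (x axis, bp from the RefSeq start, dotted), for genes with a region over the first listed exon (left) and genes without a promoter region (right). GC boxes reach 21.7% on the left and 4.80% on the right, and between 50 and 25 bases before the start TATA boxes reach 1.01% on the left and 6.46% on the right.

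Among the listed genes with a first-exon region and a single RefSeq promoter, 18 of 48 T cell promoters (37.5%) and 39 of 51 housekeeping and cycle promoters (76.5%) were CpG-rich, beside 68.9% of all 4847 promoters with a first-exon region. The difference was not tested. Within the T cell lists the counts were 1 of 11 for Th1 genes, 2 of 6 for receptor and proximal signalling genes, 1 of 4 for other helper programmes, 9 of 21 for activation genes and 5 of 6 for the T lineage transcription factors. Cell cycle genes had 14 of 17, proteasome genes 11 of 16, tRNA synthetases 4 of 8 and splicing and transcription genes 10 of 10. Cxcr3 and Il13, printed above, are examples of the CpG-poor kind, and Nr4a2, Snrpe and Cdt1 of the CpG-rich kind.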

How the data were processed

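Per the submitters' processing notes, the authors worked on the build GRCm39 and with edgeR, Picard, BWA and Trim Galore, whose roles and versions the sources used here do not give. The deposited table lists 65983 regions under each of 6 contrasts (395898 rows). The deposited region widths, window numbers and positions, in bp or plain numbers, were read from 1 contrast, and the deposited p-values served to check the row order alone. No column holds per-sample values (0), so depth is unknown and nothing was averaged over samples.

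Each overlap entry (gene, strand, class letters P, E or I for promoter, exon, intron) was parsed with Python 3.11.15 and pandas 2.3.3. Parsing and motif search were tested on simulated data. Gene symbols, and synonyms where unique, were matched to RefSeq (GRCm38.p6) by name; since the builds differ, whether a region covers a gene start was replaced by overlap with the first listed exon. Wilson 95% intervals came from scipy 1.17.1.

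The members, gene lists, motifs and rules were chosen with earlier results of these data known. The genes named were the 5 with the most regions (ties by windows), up to 4 per list with the most windows, the T cell genes without a region, the gene with most matches per motif, and the Id and E protein genes. Other genes named (the T cell receptor beta segments, the T cell markers' regions, Cdk6, U2af2, and further list genes used as examples such as Ifng, Foxp3 and Il2) were chosen after their values were seen. Alternatives covered the strand rule, clone-named genes, autosomes, joining of near regions, sequence window, CpG threshold and, added after seeing the data, protein-coding genes alone.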

Additional observations from a re-analysis of the deposited data

How the results depend on the processing

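Of 67 alternative values, 32 stayed within the interval of the reported value, or for counts within 1.5 times of it, and 35 did not. The number of one-strand promoter regions was 17023 to 19055, and medians of 600 bp and 7 windows held under each alternative run for them. Overlap with an exon of the promoter gene went from 62.4% to 65.3% when every overlapping gene had to be on 1 strand and to 69.3% with protein-coding genes alone. Overlap with the first listed exon went from 48.6% to 49.5% when regions ending within 100 bp of an exon were added and to 53.3% with protein-coding genes alone. Counting promoter regions on either strand rule, the list shares were 92.4% (T cell), 98.4% (housekeeping and cycle) and 39.4% (other), so the T cell lists no longer led; with first-exon regions alone they were 65.2%, 56.6% and 15.4%. In the 100 bases before the start, motif shares in one-strand promoters were 5.25% for CAGCTG, 47.4% for the GC box, 12.5% for the ETS site and 2.82% for the TATA box, and in genes without a region 5.47%, 12.2%, 2.77% and 12.7%. This window is shorter and also leaves out the 50 bases after the start. Which of these lowered the shares was not tested. With first-exon genes alone, over the whole 300 bases, the shares were 14.7%, 65.9%, 26.3% and 7.04%. CpG-rich promoters were 46.3% at a CpG ratio of 0.75 and 68.9% with first-exon genes alone. Of the 28 values for other motifs, 15 lay outside. Joining regions within 100 bp changed nothing, as 0 lay that close. No paired analysis was possible because no deposited column carries a single sample's values. Depth limits what was listed as a region, and cannot be read from the table.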
